A study of Mus musculus with 45 samples.

Results

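Jmjd6, Ube2o, Fbf1, Tk1, Birc5 and Sumo2 lie close together on distal mouse chromosome 11. The study picked them as candidate genes after it had found an amplicon there in MMTV-c-Myc mammary tumors. The 6 genes were followed here through all 8 genetically engineered mouse (GEM) models of mammary cancer that were profiled for DNA copy number. They were found by the gene name that the array files print for each probe, under which Jmjd6 still carries its older name Ptdsr (phosphatidylserine receptor). They were 6 of the 20910 gene names measured and had 10 of the 42235 probes on the autosomes and chromosome X.

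Jmjd6 encodes an iron- and 2-oxoglutarate-dependent JmjC-domain enzyme, to which lysyl hydroxylase and histone arginine demethylase activities have been ascribed. Its neighbours serve other processes. Ube2o attaches ubiquitin to its substrates and Sumo2 is a small ubiquitin-like modifier. Tk1 is the cytosolic thymidine kinase, which recycles thymidine for DNA synthesis in dividing cells. Birc5 (survivin) is a member of the chromosomal passenger complex and an inhibitor of apoptosis, and Fbf1 is a protein of the centriole's distal appendages. Distal mouse chromosome 11 corresponds to the distal long arm of human chromosome 17, and a gain or loss of a long stretch changes the copy number of all the genes on it together.

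Array comparative genomic hybridization (CGH) was run on 45 primary mammary tumors from female mice, 1 array for each tumor, against spleen DNA pooled from mice (the characteristics of the same channel call it normal mammary). The Agilent arrays carry probes placed on the mm8 build. In 5 models a transgene was driven by the mouse mammary tumor virus (MMTV) promoter, which is active in mammary epithelium. These were MMTV-c-Myc (n = 5), MMTV-Her2/neu (n = 5), MMTV-H-Ras (n = 5), MMTV-PyMT with the polyoma middle T antigen (n = 9) and MMTV-Wnt1 (n = 5). In C3(1)/SV40 T/t-antigens (n = 5) the C3(1) promoter drove the SV40 antigens, which bind p53 and Rb. In BRCA1fl/fl;p53+/-;MMTV-cre (the BRCA1 model, n = 5) a Cre recombinase under MMTV deleted floxed Brca1 in mice with 1 functional copy of p53. In p53fl/fl;MMTV-cre transplant (the p53 transplant model, n = 6) the same Cre deleted floxed p53 and the label names a transplant. The labels do not give ages or strains, and nothing in them says how many separate mice or transplant lines the tumors of a model came from, so p-values measure the spread between these tumors. All values are log2 ratios of tumor over reference DNA with each array's autosomal median at 0. A tumor is a mixture of cells, so the share of cells with a copy change and the size of the change per cell cannot be told apart.

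Some arrays went against their labels or resembled each other. Several results are also given without 5 of these tumors, the ones in doubt named below. The other pairs named here were kept, except in fits that left out 1 tumor. The dyes were the first point against the labels. The labels assign Cy5 to the tumor, but in all 45 arrays the authors' own deposited intervals had mostly the sign of Cy3 over Cy5 (740 of 755 intervals, 98.0%). Cy3 over Cy5 was therefore taken as tumor over reference, and with the dyes as labelled every sign below turns. In the direction used here the second of the Brca1 probes read between -5.14 and -1.69 in the 5 tumors of the model with floxed Brca1. The chromosome X median of the arrays lay between 0.621 and 1.335, apart from PyMt_3 (-0.05), PyMt341 (0.36) and C3TAg_8_RPT (1.79). What set these levels was not tested. Tumor Wnt_4635 had a log2 ratio of 0.07 at Wnt1, where the median of the 5 MMTV-Wnt1 tumors was 1.33. The ranges of Myc, Erbb2 and Trp53 in the models named for them overlapped those of other models, with Myc at 0.17 ± 0.57 (SD, n = 5) in MMTV-c-Myc, Erbb2 at 0.04 ± 0.11 (SD, n = 5) in MMTV-Her2/neu and Trp53 at -0.19 ± 0.28 (SD, n = 6) in the p53 transplant model. In smoothed profiles over 2024 bins, C3TAg_7RPT with H2N61 (r = 0.956) and C3TAg_5RPT with H2N53 (r = 0.933) were nearly alike although their models differ, while the next highest pair of different models had r = 0.851 and the median was 0.080. These 5 tumors are the ones in doubt below. Of 990 pairs of arrays, 2 had a correlation over probes under -0.3, tumor Myc_04004021 with PyMT_11567 (-0.40) and with PyMT_11570 (-0.39). The highest were P53_2979 with P53_5809 and PyMT_11567 with PyMT_11570 (0.878 each) and, between models, PyMT_11570 with Wnt_4679 (0.756), against a median of 0.121.

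The probes of the 6 genes spanned 2.33 Mb of chromosome 11. From the centromere outward came Sumo2 (chr11:115340899-115340958 and chr11:115344957-115345016), Fbf1 (chr11:115968652-115968709 and chr11:115980718-115980774) and Ube2o (chr11:116371371-116371430 and chr11:116396032-116396091). The single Jmjd6 probe followed at chr11:116653510-116653569. Beyond it lay Tk1 (chr11:117636246-117636305 and chr11:117639136-117639184) and the single Birc5 probe at chr11:117671190-117671249. Ube2o was thus the nearest of the 5 to Jmjd6, with its closer probe 257 kb away, and Sumo2 the farthest, at up to 1313 kb. Exon and intron annotation of this build was not used here. Of the 450 values of these probes, 1 was left out as an outlier spot (the first Ube2o probe in Brcap53_682), and 0 were dim or saturated. The noise of a single probe, taken from differences between neighbouring probes, had an SD of 0.159 to 0.476 by array with a median of 0.236. A gene with 1 probe, such as Jmjd6, is therefore measured in a tumor to no better than that.

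**Figure D1:**
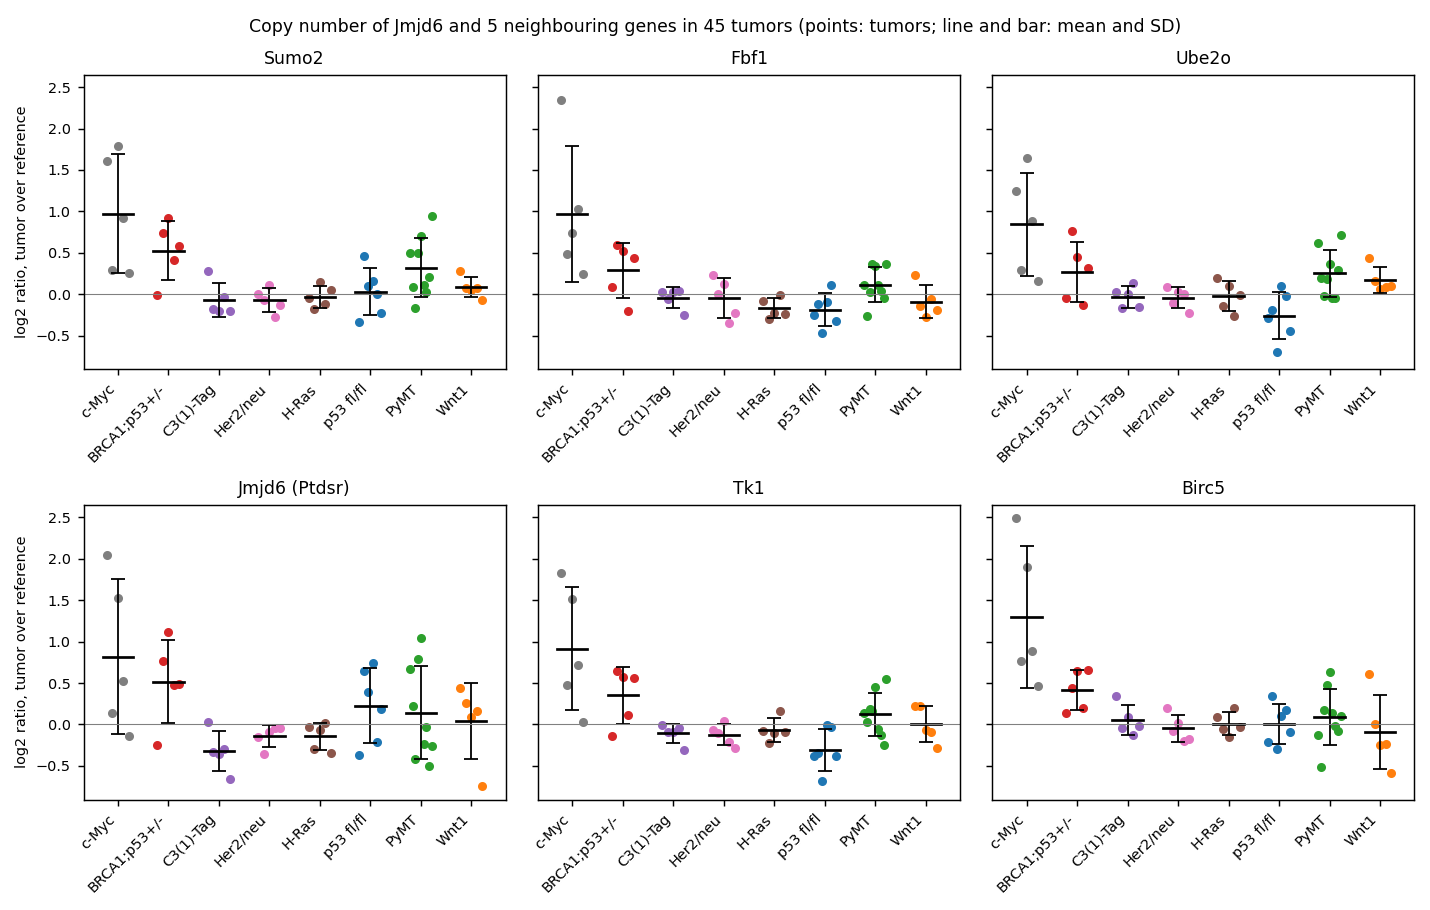
Log2 ratio (vertical axis, tumor over reference) of each of the 6 genes in each of the 8 models (horizontal axis), where each point is 1 tumor, and the line and bar are the mean and SD over the tumors of a model. For all 6 genes MMTV-c-Myc had the highest mean and the BRCA1 model the second highest, and the tumors within each of these models spread widely.

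Jmjd6 was highest in the MMTV-c-Myc tumors, the arrays on which the region was chosen, so their values are a description only. The 5 tumors read 2.05, 0.13, 1.52, 0.52 and -0.14, a mean of 0.82 ± 0.93 (SD, n = 5). Tumors Myc_04004021 and Myc_04005648 stood well above the others, and Myc_4An7 showed no gain. In the tumors of the BRCA1 model Jmjd6 read -0.25, 0.77, 1.12, 0.48 and 0.49, a mean of 0.52 ± 0.51 (SD, n = 5). The first of these, Brcap53_503, lay below 0 and the other 4 above it. In the p53 transplant model Jmjd6 ranged from -0.37 to 0.74 with a median of 0.29 and a mean of 0.23 ± 0.45 (SD, n = 6). In MMTV-PyMT it ranged from -0.50 to 1.04 with a median of -0.03 and a mean of 0.14 ± 0.57 (SD, n = 9). Both models therefore held tumors on either side of 0.

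The remaining 4 models had Jmjd6 means close to 0 or below it. The MMTV-Wnt1 tumors read 0.44, 0.26, 0.09, 0.17 and -0.75, a mean of 0.04 ± 0.46 (SD, n = 5). The highest of these is the doubtful tumor Wnt_4635, and without it the mean was -0.06 ± 0.46 (SD, n = 4). The MMTV-Her2/neu tumors read -0.15, -0.36, -0.09, -0.05 and -0.04 (mean -0.14 ± 0.13, SD, n = 5). The MMTV-H-Ras tumors read -0.03, -0.30, -0.07, 0.02 and -0.34 (mean -0.14 ± 0.16, SD, n = 5). The C3(1)/SV40 T/t-antigens tumors read 0.02, -0.33, -0.35, -0.30 and -0.65, the lowest mean of the 8 models at -0.32 ± 0.24 (SD, n = 5). These last 3 models overlapped widely. Without the near-identical tumors, the means of the remaining 3 in MMTV-Her2/neu and in C3(1)/SV40 T/t-antigens were -0.08 ± 0.06 and -0.32 ± 0.34 (SD, n = 3).

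Ube2o and Sumo2, the ubiquitin enzyme and the ubiquitin-like modifier, were also highest in MMTV-c-Myc and second highest in the BRCA1 model. Ube2o had means of 0.84 ± 0.62 in MMTV-c-Myc, 0.27 ± 0.36 in the BRCA1 model (SD, n = 5 each) and 0.25 ± 0.28 in MMTV-PyMT (SD, n = 9). It was lowest in the p53 transplant model, where the tumors ranged from -0.69 to 0.10 with a median of -0.24 (mean -0.26 ± 0.29, SD, n = 6). Sumo2 had means of 0.97 ± 0.72 in MMTV-c-Myc and 0.53 ± 0.36 in the BRCA1 model (SD, n = 5 each), where the tumors read -0.01, 0.73, 0.92, 0.41 and 0.59. Of these 5 tumors Brcap53_503 alone lay at about 0. In MMTV-PyMT Sumo2 ranged from -0.17 to 0.94 with a median of 0.20 (mean 0.32 ± 0.36, SD, n = 9), and 8 of the 9 tumors were above 0.

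Tk1 and Birc5, the thymidine kinase and survivin, lie within 35.0 kb of each other. Tk1 read -0.14, 0.64, 0.58, 0.12 and 0.56 in the tumors of the BRCA1 model, a mean of 0.35 ± 0.34 (SD, n = 5). In the p53 transplant model it ranged from -0.68 to -0.01 with a median of -0.36 (mean -0.31 ± 0.25, SD, n = 6). These 2 groups overlapped in 1 tumor, Brcap53_503. Birc5 read 0.14, 0.44, 0.64, 0.20 and 0.66 in the tumors of the BRCA1 model, a mean of 0.41 ± 0.24 (SD, n = 5). It was the 1 gene of the 6 that lay above 0 in every tumor of that model. In MMTV-c-Myc the means were 0.91 ± 0.74 for Tk1 and 1.30 ± 0.86 for Birc5 (SD, n = 5 each), the latter the highest of any gene in any model.

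Fbf1, the centriole gene, read 0.09, 0.59, 0.52, -0.20 and 0.44 in the tumors of the BRCA1 model, a mean of 0.29 ± 0.33 (SD, n = 5). It was again highest in MMTV-c-Myc (0.97 ± 0.82, SD, n = 5) and lowest in the p53 transplant model (-0.19 ± 0.20, SD, n = 6). All other model means of the 5 genes besides Jmjd6, outside those given, lay between -0.17 and 0.17. Whether neighbours in the order of the 7 models other than MMTV-c-Myc differ was examined for each gene with an exact permutation test on both sides. Of the 36 pairs of neighbouring models 0 passed after Benjamini-Hochberg adjustment and 0 had an unadjusted p under 0.05. The lowest exact p was 0.0709, for Birc5 between the BRCA1 model and MMTV-PyMT, and a comparison of 5 tumors with 5 could reach 0.00794. No step in the order of the 7 models passed this test, and without the 5 tumors in doubt 0 of 36 pairs passed.

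To ask whether a gene's copy number in 1 model departs from the others, each of the 7 models other than MMTV-c-Myc was compared with the mean of the remaining 6. The test was limma on all 20910 gene names with Benjamini-Hochberg adjustment at 0.05. In the BRCA1 model 3 of the 6 genes were called higher, beside 2.09% of all gene names, and 0 lower, beside 2.27%. Tk1 was higher by 0.43 ± 0.11 (SE, limma adjusted p = 0.0191), Sumo2 by 0.48 ± 0.13 (SE, limma adjusted p = 0.0202) and Fbf1 by 0.36 ± 0.11 (SE, limma adjusted p = 0.0456). Jmjd6 had the largest difference of the 6, 0.55 ± 0.19 (SE), but also the largest SE, and it did not pass (limma adjusted p = 0.0930). Birc5 (0.41 ± 0.13, SE, limma adjusted p = 0.0640) and Ube2o (0.26 ± 0.12, SE, limma adjusted p = 0.223) did not pass either. The calls rested on Brcap53_682, Brca_14 and Brca_54, since without any 1 of these tumors 0 of the 6 genes were called, and without Brcap53_503 5 were. The call for Fbf1 held in 22 of the 40 fits that left out 1 tumor. Fbf1 was no longer called with each array centred on the peak of its density (limma adjusted p = 0.0919) or without the 4 near-identical tumors (limma adjusted p = 0.0545), and without all 5 tumors in doubt the 3 calls held and Birc5 joined them (limma adjusted p = 0.0495).

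The slides and scan dates of the arrays of the BRCA1 model held no other model, so batch and model cannot be told apart there. With the slide as a random block (limma's duplicateCorrelation, consensus correlation 0.131) 0 of the 3 calls held, with limma adjusted p of 0.0668 for Tk1, 0.0731 for Sumo2 and 0.101 for Fbf1. The differences were then 0.42, 0.47 and 0.36, close to those without the block. None of them held with the scan date as a random block or with all 45 arrays in the fit, and with another background correction (normexp) Birc5 was the 1 gene called.

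In the p53 transplant model 2 of the 6 genes were called lower, beside 6.55% of all gene names, and 0 higher, beside 8.01%. Ube2o was lower by 0.36 ± 0.11 (difference -0.36, SE, limma adjusted p = 0.0240) and Tk1 by 0.33 ± 0.10 (difference -0.33, SE, limma adjusted p = 0.0268). Jmjd6, which lies between these genes, differed by 0.21 ± 0.18 (SE) in the other direction and was not called (limma adjusted p = 0.452). The p53 arrays shared both of their scan dates with other models. Their slides held no other model, so slide and model cannot be told apart there. Within the first date (3 tumors against 9) the differences were -0.34 for Tk1 and -0.29 for Ube2o, and within the second (3 against 2) they were -0.41 and -0.34. The direction was thus the same within each date for these genes, whereas Jmjd6 differed by 0.20 within the first and -0.04 within the second. The others of the second date were only H2N53, a tumor in doubt, and PyMt342, with all 6 genes gained. Those of the first date included H2N61, in doubt, and PyMt341, with all 6 genes gained. Both calls were lost without the 4 near-identical tumors, with limma adjusted p of 0.0594 for Tk1 and 0.0520 for Ube2o, and without all 5 tumors in doubt (0.0711 and 0.0627). They were also lost with the slide as a random block (0.0818 and 0.0671), with all 45 arrays in the fit (0.0962 and 0.0592), under normexp (0.117 and 0.215), without P53_5809 (0.151 and 0.149) or without P53_8546 (0.0607 and 0.0713), all limma adjusted p. With the scan date as a random block the call for Ube2o was lost (limma adjusted p = 0.0689) and that for Tk1 held (0.0446). Without P53_2979 the call for Tk1 was lost (limma adjusted p = 0.0636). The differences for Tk1 and Ube2o were -0.32 and -0.35 without the 4 near-identical tumors and -0.33 and -0.36 with the slide as a random block. They were -0.25 and -0.28 under normexp and -0.26 and -0.27 without P53_5809.

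The other 5 models had 0 of the 6 genes called. Of all gene names, 0.956% were called higher and 0.139% lower in MMTV-PyMT, 1.2% and 1.01% in MMTV-H-Ras and 0.0383% and 0.0191% in MMTV-Wnt1. In MMTV-Her2/neu 0.0239% and in C3(1)/SV40 T/t-antigens 0.00478% were called lower, and 0 gene names higher. The nearest to a call in MMTV-PyMT was Ube2o, higher by 0.24 ± 0.09 (SE, limma adjusted p = 0.182). In the moderated F test for any difference among the 7 models, Tk1 (limma adjusted p = 0.0207), Sumo2 (0.0275) and Ube2o (0.0382) passed, beside 16.7% of all gene names. Jmjd6 did not (limma adjusted p = 0.112). None of the 3 passed with the slide as a random block (limma adjusted p of 0.0803, 0.0959 and 0.123, in the same order), with the scan date as one (0.0870, 0.142 and 0.145), with all 45 arrays in the fit or under normexp. Without the 5 tumors in doubt only Tk1 passed (limma adjusted p = 0.0452). With each probe tested on its own, Tk1 (limma adjusted p = 0.0163) and Fbf1 (0.0194) passed by their lowest probe. Sumo2 (0.0602) and Ube2o (0.0588) then did not.

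Genes that lie among the 6 share the same stretch of chromosome, so their values are not independent of them. Between the first Sumo2 probe and the last Birc5 probe lay 55 further gene names. In the BRCA1 model 16 of the 55 were called higher, beside 2.09% of all gene names, and 0 lower. A positive difference was found for 53 of the 55, beside 10997 of all 20910 gene names, with a median of 0.34 against 0.01. In MMTV-PyMT 52 of the 55 had a positive difference, beside 10788 of the 20910, with a median of 0.20, but 0 were called. In the p53 transplant model 9 of the 55 were called lower, beside 6.55% of all gene names, with a median of -0.14. Genes whose products work with the 6 but lie elsewhere in the genome were also counted, in limma tests of the same 7 contrasts. Among the chromosomal passenger partners of Birc5 (Incenp, Cdca8) 0 of 14 tests were called, and among the distal appendage partners of Fbf1 (Cep83, Cep89) 0 of 14. Of the thymidine nucleotide genes beside Tk1, Tyms and Tk2 were called in 0 of the 7 contrasts. Of the SUMO conjugation genes, Sumo3 and Sae1 were called in 0 of the 7 contrasts, and Uba2, on chromosome 7 and a subunit of the SUMO-activating enzyme, was called higher in the p53 transplant model by 0.25 ± 0.09 (SE, limma adjusted p = 0.0463), a contrast in which 8.01% of all gene names were called higher.

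Single genes say little about the length of a gain, so each array was also divided into segments of equal copy number by circular binary segmentation. A segment of at least 5 probes with a mean of at least 0.2 counted as a gain, and of at most -0.2 as a loss. Among the 40 tumors of the 7 models, Jmjd6 lay in a gained segment in 9 (22.5%, 95% Clopper-Pearson interval 10.8 to 38.5), beside 14.9% of all autosomal probe values. Ube2o, Fbf1 and Sumo2 were gained in 8 (20%, 9.05 to 35.6) and Tk1 and Birc5 in 7 (17.5%, 7.34 to 32.8). Losses held Sumo2 in 5 tumors and each of the other genes in 6, beside 12.2% of all autosomal probe values. The autosomal share of gains lay within the interval of each of the 6 genes. In 1 of the 9 tumors, PyMT_11570, the Jmjd6 probe itself read -0.26 inside the gained segment. Without the 5 tumors in doubt Jmjd6 was gained in 8 of 35, and under normexp background correction each of the 6 genes was gained in 4 of 40. With the limits at 0.3 and -0.3, Jmjd6 was gained in 7 tumors and lost in 1. By the deposited interval tables each of the 6 genes was gained in 8 tumors and lost in 2. Those intervals held no gain in PyMT_11570 or P53_5817 and a gain over the whole chromosome in C3TAg_5RPT (0.30), where the segment here had a mean of -0.10. Their losses were in H2NA and H2N53, so that C3TAg_8_RPT, Wnt_4679 and the p53 transplant tumors had none. A gain in at least 8 of the 40 tumors was found at 29.9% of autosomal probes. Within chromosome 11 the 6 genes sat in the more often gained end, since 47.9% of probes from 100 Mb onward were gained in at least 8 tumors against 0.680% of probes below 100 Mb.

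The gains fell mainly into 2 models. In the BRCA1 model all 6 genes were gained in 3 of 5 tumors (60%, 14.7 to 94.7), beside 16.9% of autosomal probe values in that model. In MMTV-PyMT Jmjd6, Ube2o, Fbf1 and Sumo2 were gained in 4 of 9 tumors (44.4%, 13.7 to 78.8), and Tk1 and Birc5 in 3 (33.3%, 7.49 to 70.1), beside 7.31% of autosomal probe values. In MMTV-Wnt1 1 of 5 tumors was gained, and it was the doubtful Wnt_4635. Whether these shares differ between models was not tested. Losses held the genes in 3 of 6 tumors of the p53 transplant model (Sumo2 in 2), beside 25.9% of autosomal probe values. The Jmjd6 probe itself read above 0 in 2 of these 3, P53_5809 (0.39) and P53_8546 (0.18). In MMTV-c-Myc, where the region was chosen, all 6 genes were gained in 4 of 5 tumors. The genes mostly shared a state, with all 6 gained in 7 of the 40 tumors, all 6 lost in 5, and only some of them gained in 2 or lost in 1.

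**Figure D2:**
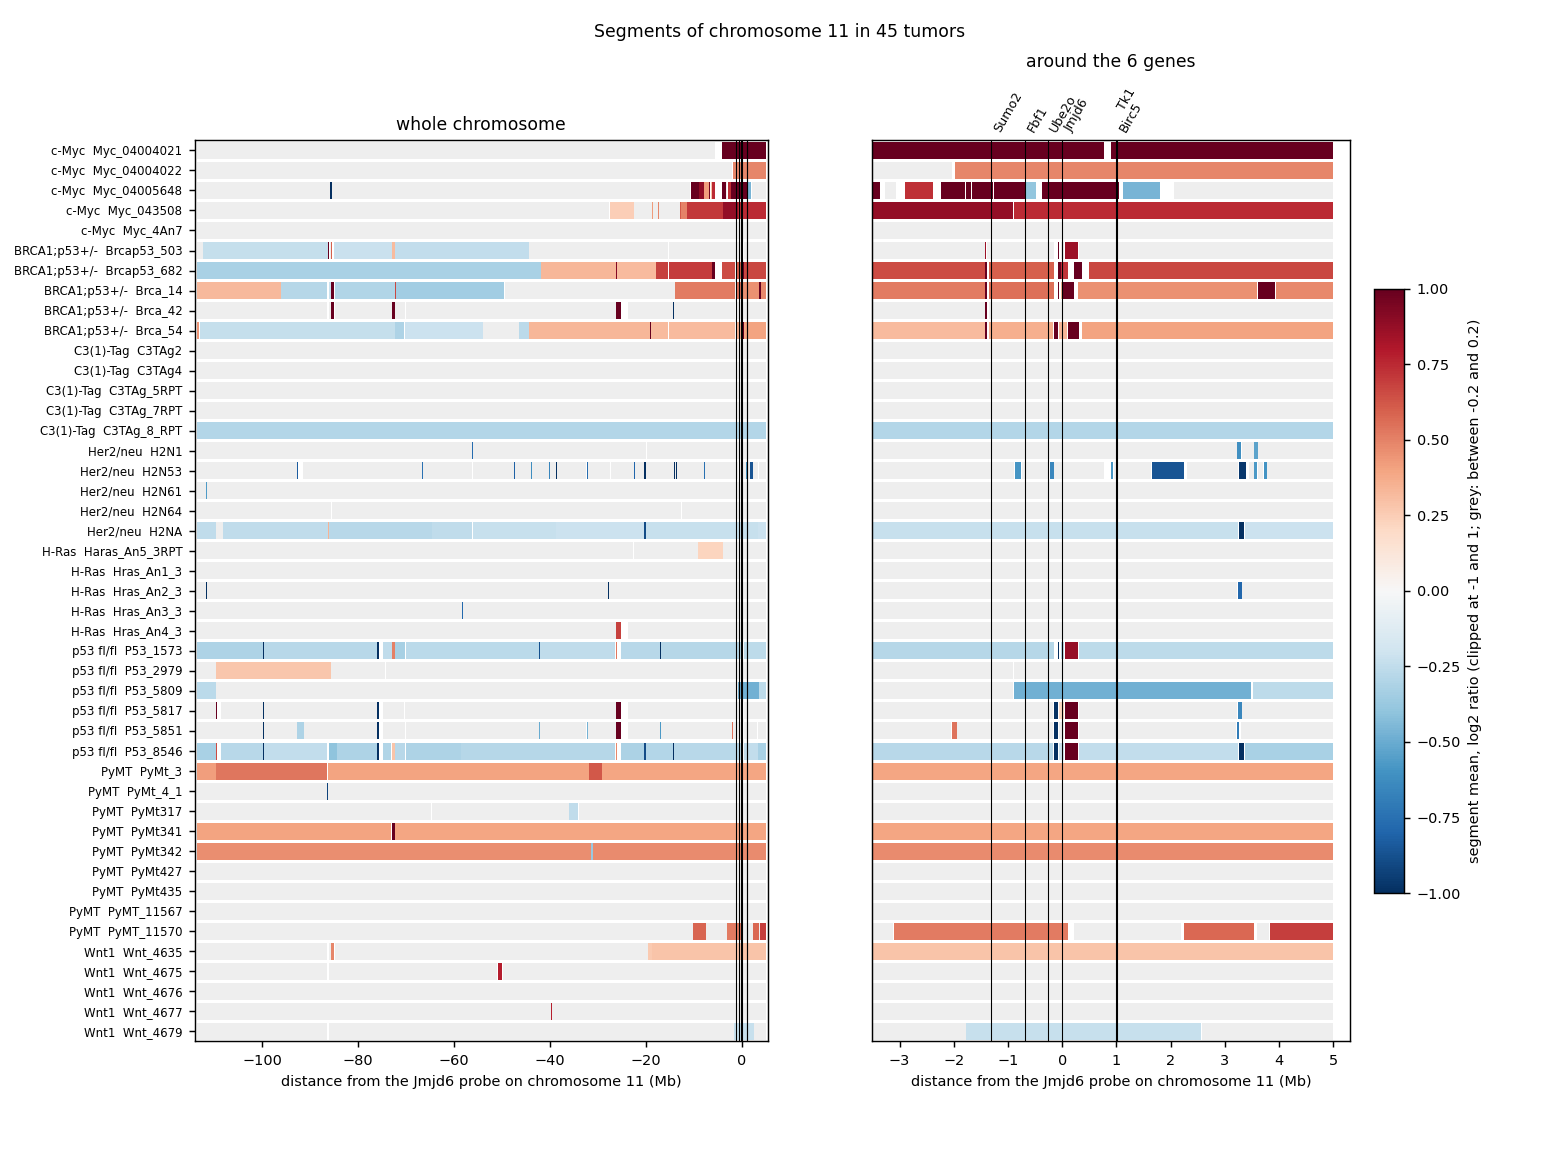
Segments of chromosome 11 in each of the 45 tumors (rows), coloured by segment mean (log2 ratio) over the whole chromosome on the left and around the 6 genes (vertical lines) on the right, where the horizontal axis is the distance from the Jmjd6 probe in Mb, and grey marks means between -0.2 and 0.2. Gains over the 6 genes that reach the distal end are seen in 3 MMTV-c-Myc tumors, 3 tumors of the BRCA1 model and Wnt_4635, and gains over nearly the whole chromosome in 3 MMTV-PyMT tumors. Short breaks lie near Jmjd6 in the BRCA1 and p53 transplant models.

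The extent of the gain differed between these models. In the MMTV-PyMT tumors PyMt_3 and PyMt341 the gained run covered the measured chromosome, 118.6 Mb, with means of 0.42 and 0.40. In PyMt342 the run that held the genes was 36.0 Mb long with a mean of 0.47, and the rest of the chromosome was gained too, apart from 1 short break. In these 3 tumors nearly all of the chromosome was thus raised. PyMT_11570 had a run of 3.22 Mb (chr11:113542922-116765731, mean 0.52) that ended between Jmjd6 and Tk1. In the 3 tumors of the BRCA1 model the run reached the distal end from position 101482576 in Brcap53_682 (mean 0.70) and Brca_54 (mean 0.37) and from position 102621434 in Brca_14 (mean 0.58). Their proximal chromosome 11 was not gained throughout, with long segments at -0.33 in Brcap53_682 and -0.24 in Brca_54. Wnt_4635 was gained over the distal 24.6 Mb (mean 0.29). The region common to the 8 tumors with at least 4 genes gained was 3.22 Mb long and was set by PyMT_11570 alone. It held 82 gene names. Without the isolated probes described next, the PyMT_11570 run and with it the common region were 15.2 Mb long.

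The starts in Brcap53_682 and Brca_54 depended on single probes. The second Brca1 probe lies at chr11:101340828-101340887, in the deleted gene, and read -3.58 in Brcap53_682 and -4.76 in Brca_54, so that a run could not pass it. The first Brca1 probe read 0.81 and 0.57 in the same tumors. In an alternative chosen after the data were seen, the 61 probes of chromosome 11 that stood more than 1.5 apart from the median of their 10 neighbours in at least 3 arrays were left out. The gain then began at 74.7 Mb in Brcap53_682 (47.0 Mb long, with a step from 0.33 to 0.69 at 98.7 Mb), at 72.3 Mb in Brca_54 (49.4 Mb) and at 102 Mb in Brca_14 (19.4 Mb). Jmjd6 thus lay 14.4 to 44.4 Mb inside the gain in these 3 tumors. All 6 genes were then gained in the same number of tumors, 8 of 40, because PyMT_11570 became 1 run of 15.2 Mb (mean 0.43) that included Tk1 and Birc5 and because P53_5817 was no longer gained.

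**Figure D3:**
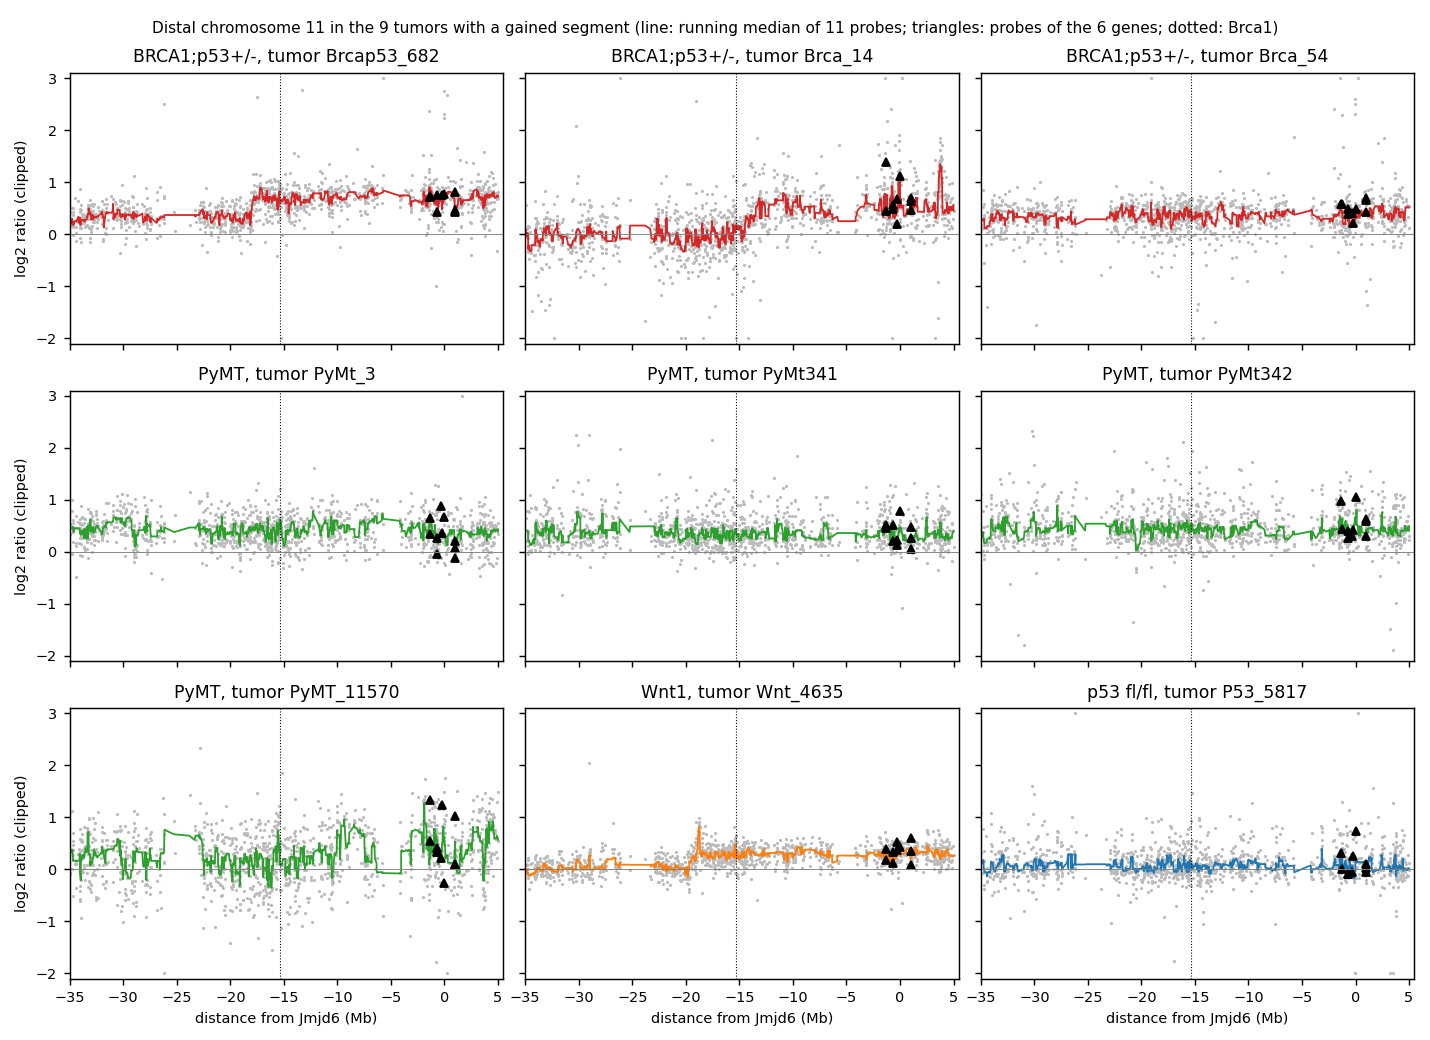
Log2 ratio of each probe (grey points, clipped) against distance from Jmjd6 in Mb over distal chromosome 11, in the 9 tumors of the 7 models with Jmjd6 in a gained segment, where the line is the running median of 11 probes, triangles are the probes of the 6 genes and the dotted line is Brca1. The running median rises near -18.0 Mb in Brcap53_682, near -14.0 Mb in Brca_14 and near -19.6 Mb in Wnt_4635, is level in Brca_54 and 3 MMTV-PyMT tumors, varies in PyMT_11570 and stays close to 0 in P53_5817.

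The interval was also set against the rest of its own chromosome. The mean of the 114 probes from Sumo2 to Birc5 exceeded the mean of the 2206 probes below 100 Mb in 5 of 5 tumors of the BRCA1 model, by 0.43 ± 0.33 (SD, n = 5). In MMTV-PyMT it did so in 2 of 9 tumors, with a mean difference of 0.00 ± 0.10 (SD, n = 9). It did so in 0 of 6 tumors of the p53 transplant model, with a mean difference of -0.10 ± 0.04 (SD, n = 6). In MMTV-c-Myc it did so in 5 of 5, by 0.84 ± 0.76 (SD, n = 5). These means keep the isolated probes. By medians instead, the interval lay below the part under 100 Mb in Brca_42 (0.015 against 0.017). By medians it lay above that part in P53_1573 (-0.271 against -0.285), P53_8546 (-0.309 against -0.325), P53_5817 (0.072 against 0.059) and PyMt317 (-0.010 against -0.028). The other tumors of these models kept their order. These differences were described and not tested.

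The losses ran from the whole chromosome down to a few Mb. In C3TAg_8_RPT all of chromosome 11 was lost (mean -0.29), and in H2NA the distal 91.1 Mb (mean -0.24). In P53_1573 and P53_8546 the lost run took in the distal 30.3 Mb (means -0.30 and -0.32). The loss was shorter in P53_5809, where it held the distal 5.89 Mb (mean -0.41), and in Wnt_4679, where it was 4.33 Mb long (mean -0.23). The single-probe noise of these last 2 arrays was high, at 0.476 and 0.351, against a median of 0.236 over all arrays.

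P53_5817 was the 1 tumor in which Jmjd6 alone was gained. Its segment at Jmjd6 held 9 probes with a mean of 0.21, just past the limit of 0.2, and the Jmjd6 probe itself read 0.74. Without the isolated probes this tumor had a level of 0.11 over the whole chromosome and no gain. Near Jmjd6 stood 4 such isolated probes, named here after their values were seen. Of these, 3 carry the name AK155119 and lie 82.0 to 82.9 kb proximal of Jmjd6. They read from -6.98 to -4.19 in P53_1573, P53_5817, P53_5851 and P53_8546 and from -0.39 to 0.38 in P53_2979 and P53_5809. In the tumors of the BRCA1 model the same 3 probes ranged from 0.29 to 2.76, with medians of 2.32, 2.18 and 2.24, and stood apart from their neighbours in 3, 3 and 4 of the 5 tumors. The fourth probe, 223 kb distal of Jmjd6 and without a gene name, read 4.70 to 5.52 in the same 4 p53 tumors. It read -0.03 in P53_2979 and -2.03 in P53_5809. In the tumors of the BRCA1 model it ranged from -1.30 to 5.04 with a median of 3.71. These probes split the segments around Jmjd6 in both models. What set their values was not tested.

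**Figure D4:**
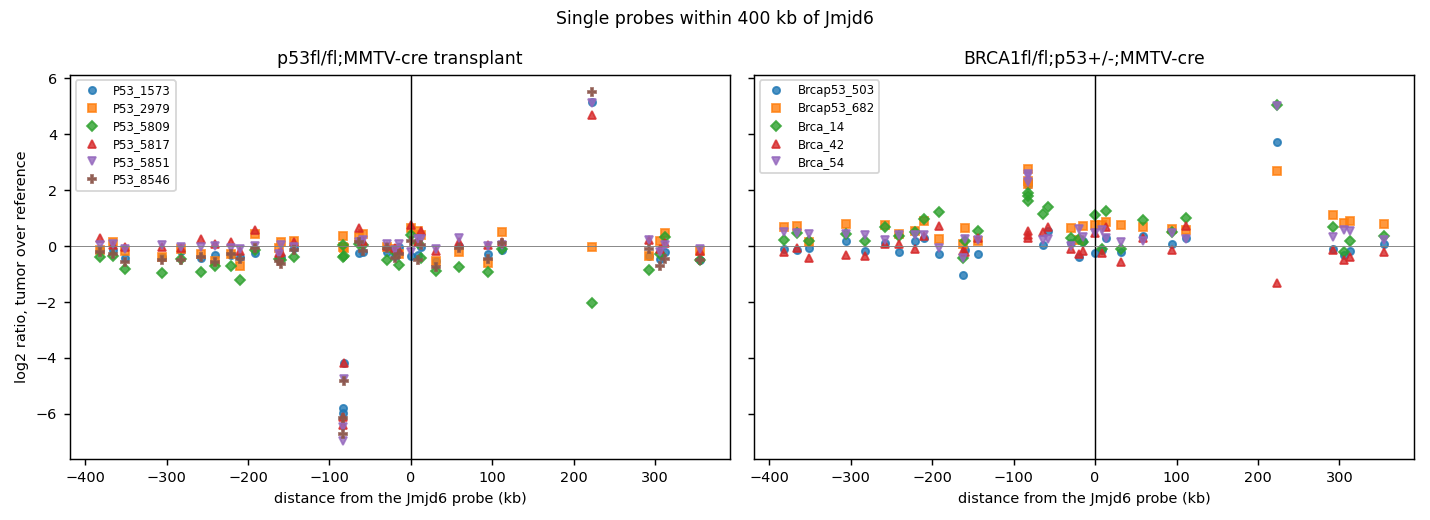
Log2 ratio of every probe within 400 kb of the Jmjd6 probe (horizontal axis in kb, black line at Jmjd6) in the BRCA1 model and the p53 transplant model, 1 symbol for each tumor. Most probes lie on either side of 0, whereas 3 probes near -82 kb fall to between -6.98 and -4.19 in 4 p53 tumors and 1 probe at 223 kb rises to between 4.70 and 5.52 in the same tumors. In the BRCA1 model the medians of these 4 probes are 2.32, 2.18, 2.24 and 3.71.

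How far a gene's value can be trusted in a single tumor was read from the 4 genes with a pair of probes. Over the 40 tumors the median difference in size between the probes was 0.171 for Ube2o, 0.187 for Fbf1, 0.189 for Tk1 and 0.250 for Sumo2. Over all 8770 genes with a pair of probes the median was 0.229, with 0.141 and 0.398 as the 10th and 90th percentiles, and the pairs of these genes lay between them. Across tumors the paired probes had r = 0.374 for Ube2o, 0.377 for Sumo2, 0.566 for Tk1 and 0.576 for Fbf1 (n = 40, or 39 for Ube2o), where both probes share an array and its noise. Single tumors departed strongly. In PyMT_11567 the Ube2o probes read -0.42 and 1.00 and the Sumo2 probes 0.83 and -0.42. In PyMT_11570 the Tk1 probes read 1.02 and 0.08. In Myc_04005648 the Fbf1 probes read 1.87 and -0.40 and lay in segments of different state, the 1 such case among the 6 genes.

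**Figure D5:**
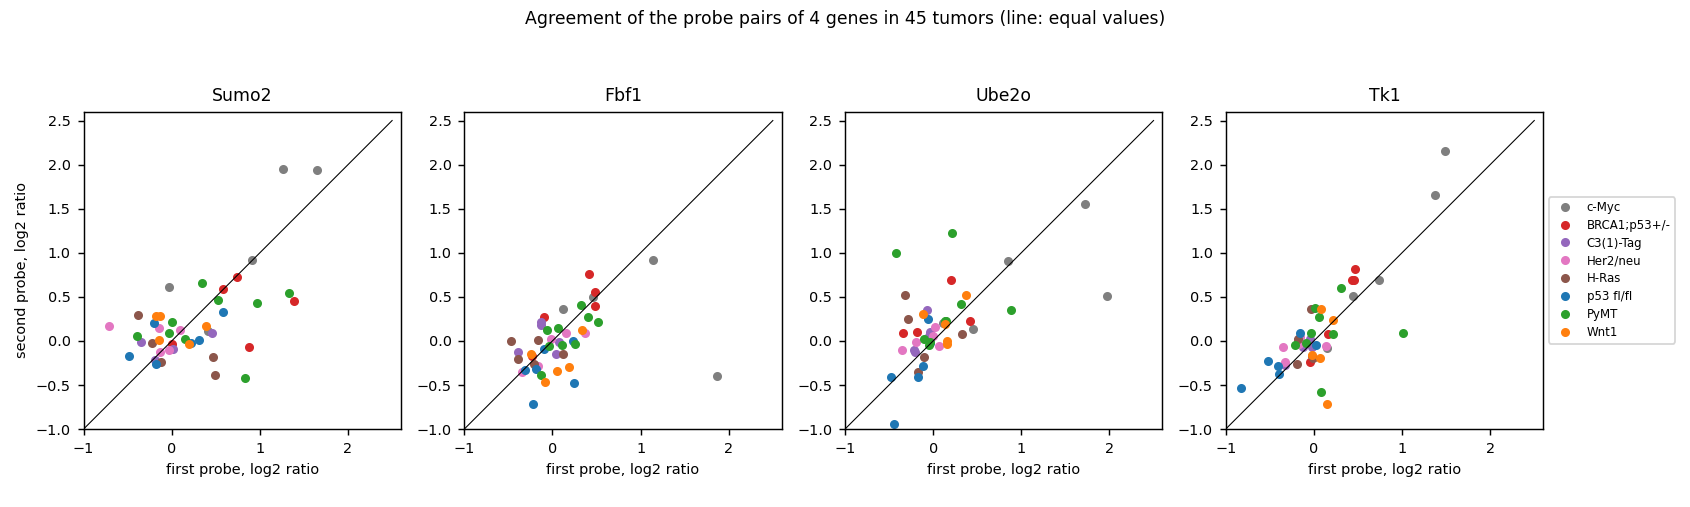
Second probe against first probe (log2 ratios) of Ube2o, Fbf1, Tk1 and Sumo2, 1 point for each tumor, coloured by model, with a line of equal values. The median distance between the probes of a pair was 0.171 to 0.250 over the 40 tumors outside MMTV-c-Myc. The farthest points are an Fbf1 and a Ube2o value in MMTV-c-Myc (1.87 against -0.40, and 1.98 against 0.51) and the Ube2o and Sumo2 values of PyMT_11567.

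The values of the 6 genes ran together to differing degrees. Over the 40 tumors, which share arrays and chromosome, Pearson's r was highest between Fbf1 and Tk1 (0.823), Ube2o and Tk1 (0.794) and Fbf1 and Birc5 (0.760). For Jmjd6 r was 0.693 with Sumo2, 0.561 with Birc5, 0.494 with Tk1, 0.420 with Fbf1 and 0.343 with Ube2o, its nearest neighbour. These values fell in the order of distance, with the farthest gene having the highest r. In 6 of the 40 tumors all 6 genes were above 0, in 5 all were below 0, and in 29 the signs were mixed. Jmjd6 was the highest of the 6 genes in 15 tumors and the lowest in 15. The range over the 6 genes within a tumor had a median of 0.40 (0.16 to 1.20) on the log2 scale, beside a median single-probe noise of 0.236.

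The gene names whose values followed the single Jmjd6 probe best, over the same 40 tumors and 20529 gene names, all lay on chromosome 11. They were AK162207 (r = 0.915), X83328 (0.883), BC050746 (0.876), D11Ertd636e (0.869) and D11Wsu99e (0.865), located 3.14 to 11.7 Mb proximal of Jmjd6. Within the interval from Sumo2 to Birc5 they were Grb2 (0.821), Cdk3 (0.813), 2310067B10Rik (0.787), Recql5 (0.784) and Cygb (0.740). Of the 100 highest, 100 were on chromosome 11 and 28 within 5 Mb of Jmjd6. The median r was 0.48 over the 60 gene names of the interval, 0.34 over chromosome 11 and -0.01 over all gene names. Of the other 5 candidates, Sumo2 ranked 157 and Ube2o 3031. All of these points share arrays and their noise.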

How the data were processed

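Per the labels and methods, the authors hybridized tumor and reference DNA to Agilent 44K CGH arrays and extracted spots with Feature Extraction (10.7 in the labels, 9.5.1.1 in the file headers, build mm8). The deposited scanner files hold the processed red and green signal intensity and their log10 ratio. PyMT_11567, PyMT_11570, Wnt_4675, Wnt_4676, Wnt_4677 and Wnt_4679 carry another dye normalization method than the other arrays. The authors' interval tables were used for the dye direction and as an alternative. Here the sign was turned (Cy3 over Cy5), the deposited log10 ratio was multiplied by 3.32 to log2, each array was centred on its autosomal median, outlier spots were left out, and probes of a gene name were averaged. Precision is limited by probe noise and the number of arrays. Model contrasts used limma 3.58.1 in R 4.3.3 (lmFit, eBayes, Benjamini-Hochberg over 20910 gene names, threshold 0.05) on 40 arrays. MMTV-c-Myc was left out because the study chose the genes there. The paper's choice also drew on higher expression than in normal gland and in MMTV-HRas and MMTV-Her2/Neu tumors lacking the amplification. Those models stayed in the contrasts. The exact permutation tests used scipy 1.17.1. Segmentation split at a statistic over 6. Both were tested on simulated data: limma recovered 29% of shifts of 0.4 and 88% of shifts of 0.8 in the BRCA1 contrast over 20530 genes. The text names the 6 genes, the 5 gene names most like Jmjd6 in the interval and on the array, partner genes, and label-check genes. Some partner genes are not reported here. The members and lists were chosen with earlier results of these data known.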

Additional observations from a re-analysis of the deposited data

Results flagged for a closer look

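Among 48 sets of tumors (6 genes in 8 models), 1 value stood apart from the rest of its model. It was Ube2o in MMTV-Wnt1, where tumor Wnt_4635 read 0.44 and the nearest other tumor 0.16, a gap of 0.735 of the whole range. Chance sets apart about 1 in 20 such sets. Wnt_4635 is also the tumor without the raised Wnt1 value of its model, and without it no MMTV-Wnt1 tumor had Ube2o in a gained segment.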

How the results depend on the processing

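Of 42 tests (6 genes in 7 models) 5 were called, and the F test called 3 genes. Under normexp background correction these counts were 1 and 0, with the slide as a random block 0 and 0, with the scan date as a random block 1 and 0, with all 45 arrays in the fit 0 and 0, without the 4 near-identical tumors 2 and 1, and without the 5 tumors in doubt 4 and 1. For genes higher in the BRCA1 model (3) the count was 1 under normexp and 0 with slide, scan date or all 45 arrays. For genes lower in the p53 model (2) it was 0 under normexp, with the slide, with all 45 arrays, without the 4 and without the 5 tumors, and 1 with the scan date. Leaving out each tumor in turn gave 2 to 7 calls in all, 1 to 4 F calls, 0 to 5 higher in the BRCA1 model and 0 to 2 lower in the p53 model. The causes were not tested. With the dyes as labelled the counts of genes higher in the BRCA1 model and of genes lower in the p53 model were 0. The 5 called tests then turned their sign at the same adjusted p, and the 3 F calls stood. The differences turned to -0.36 (Fbf1), -0.48 (Sumo2), -0.43 (Tk1), -0.55 (Ptdsr), -0.41 (Birc5) and -0.26 (Ube2o) in the BRCA1 model. In the p53 model they turned to 0.33 (Tk1) and 0.36 (Ube2o). The gained tumors became 5 for Sumo2 and 6 for each other gene. Under normexp 4 tumors were gained for each of the 6 genes, and the MMTV-Wnt1 means moved to -0.0083 for Ube2o and -0.13 for Sumo2. The slide as a fixed block could not be run, since the slides of 3 models held no other model. No paired analysis was possible because replicate numbers only follow the order of the samples. Slides that held several models entered as the random block.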
